A study of Homo sapiens with 16 samples.

Results

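The proteasome subunit genes of human HEK293 cells were followed across 16 RNA-seq libraries. A gene was taken where its whole symbol was PSMA, PSMB, PSMC or PSMD and a number, with the immunoproteasome genes PSMB8 and PSMB9 left out. This gave 37 of the 60671 genes in the count table. They comprise 17 genes of the core particle, 17 of the regulatory particle and 3 assembly chaperones that carry PSMD symbols. HEK293 is an established line of embryonic kidney origin. The 8 groups held 2 libraries each: parental cells, cells given empty pcDNA3.0 plasmid, and cells given that plasmid with 1 of 6 transcripts of the non-coding RNA gene LINC01016 (T1, T2, CU1, CU2, CU1ENC and CU1ENU). Each transfected plate of 60 mm received 5 µg of plasmid with a lipid reagent, and RNA was collected after 48 h. The transfection was transient, so a library can hold cells with and without plasmid, and the labels describe no mock-transfected group. Plasmid, reagent and handling therefore cannot be told apart in comparisons with parental cells.

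The proteasome is the protease that degrades ubiquitin-tagged proteins in the cytosol and nucleus. Its core particle is a stack of rings built from alpha subunits (PSMA) and beta subunits (PSMB), and PSMB5, PSMB6 and PSMB7 carry the active sites. The regulatory particle caps the core: its ATPases (PSMC) unfold the substrate, and its other subunits (PSMD) bind and remove ubiquitin. Transcription of subunit genes is known to be raised by the factor NFE2L1 through antioxidant response elements when proteasome activity falls short.

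Library totals ran from 15040770 to 17255935 counts. LINC01016 had between 40405 and 192244 counts in libraries given a transcript and at most 1 in the others, which matched the labels. All 8 markers fixed for HEK293 were detected in each library, with PAX2 the lowest at 1.21 to 5.06 TPM (transcript counts scaled by exonic length and library total). Of 13 markers of other cell types, those of leukocytes, endothelium, blood and liver were at or near 0 apart from CD14 (18 to 72 counts), and fibroblast COL1A1 had 580 to 814 counts. PTPRC, CD3E and HBB were at 0 in 14, 11 and 15 of the 16 libraries. The 13 markers summed to 20.3 and 23.7 TPM in parental and 23.4 to 33.8 TPM in transfected libraries. Of the 5 that could be tested, CD14 alone passed between transfected and parental cells (log2 fold change 1.23, adjusted p = 0.00431, edgeR), and its part in the results below was not tested. Counts came from bulk RNA, in which fewer cells and less RNA per cell cannot be told apart.

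Short promoter sequences are shown first for the 3 regulatory genes that passed the test between transfected and parental cells, PSMC4, PSMD3 and PSMD12, each of which held a match to the antioxidant response element core. The core genes that passed it, PSMA5 and PSMB5, held no match in their windows. The letters searched were TGACNNNGC on either strand, in RefSeq windows (GRCh38.p14) from 250 bases before to 50 bases after each annotated start. A window was found for 32 of the 37 genes, and the core genes PSMA7, PSMB1, PSMB6 and PSMB7 and the regulatory gene PSMD4 had none. PSMA4 and PSMB3, the core genes with a match, are shown beside the 3 regulatory genes. Capitals mark the match, written 5′ to 3′ on the strand of the gene, and for PSMC4 the match reads on the opposite strand.
PSMD3, chr17:39980760-39980788, plus strand: tcccctttgtTGACTCGGCcatcggcctg
PSMD12, chr17:67366724-67366752, minus strand: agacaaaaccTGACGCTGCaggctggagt
PSMC4, chr19:39971182-39971210, plus strand: acagaggccgGCTTGGTCActatggagga
PSMA4, chr15:78540650-78540678, plus strand: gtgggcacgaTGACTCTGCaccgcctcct
PSMB3, chr17:38752627-38752655, plus strand: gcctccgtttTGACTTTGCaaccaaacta
The matches began 37 bases before the start of PSMD3, 165 before that of PSMD12, 126 before that of PSMA4 and 104 before that of PSMB3, and 28 bases after the start of PSMC4. Matches were present for 9 of the 32 genes (28.1%), against 16.1% of 27305 genes with a window. They were found for 5 of 16 regulatory genes (PSMC4, PSMC5, PSMD1, PSMD3 and PSMD12), 2 of 13 core genes and 2 of 3 chaperones (PSMD5 and PSMD9). CCAAT, a short promoter motif that can overlap the other by an end base only, was present for 17 of the 32 (53.1%) against 39.7% of all genes with a window. A match describes these letters only and shows no binding.

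Of the 37 genes, 35 passed the filter on low counts: 15 core, all 17 regulatory and 3 chaperones. PSMA8, an alpha subunit of male germ cells, had 4 counts over the 16 libraries, and PSMB11, a beta subunit of the thymus, had 5. Among core subunits, PSMB3 was the highest at 514 TPM (mean of 8 groups), followed by PSMA7 at 487 TPM. These neighbours differed by less than the spread between libraries. The catalytic subunits PSMB7, PSMB6 and PSMB5 stood at 397, 369 and 274 TPM. Among regulatory subunits the levels ran from 45.7 TPM for PSMD6 to 361 TPM for PSMD8, a ratio of 7.89. Among the chaperones, PSMD10 stood at 138 TPM and PSMD9 at 3.42 TPM.

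Apart from the chaperones and the near-silent PSMA8 and PSMB11, subunits of the same particle thus differed in annotated level. Part of this moved with the gene model. PSMA1, PSMA2, PSMA6, PSMB10 and PSMD9 share coding bases on their own strand with another annotated gene, between 59.9% (PSMB10) and 100% (PSMA2) of the coding bases in GENCODE 29. PSMA2, PSMA6, PSMB10 and PSMD9 stood between 2.66 and 4.69 TPM and PSMA1 at 50.3 TPM. The counting command in the file header does not ask for reads that overlap several genes to be counted, so their levels are uncertain. When CPM (counts scaled to library size) were divided by the length of the principal transcript in place of all annotated exons, these 5 genes spanned 1.22 to 25.8 CPM per kilobase. The other 30 genes with counts spanned 11.4 (PSMD5) to 258 (PSMB1) CPM per kilobase. On this scale the highest regulatory subunit was 5.05 times the lowest. Among the core genes that share no coding bases, the ratio was 10.2, from PSMA5 to PSMB1.

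**Figure D1:**
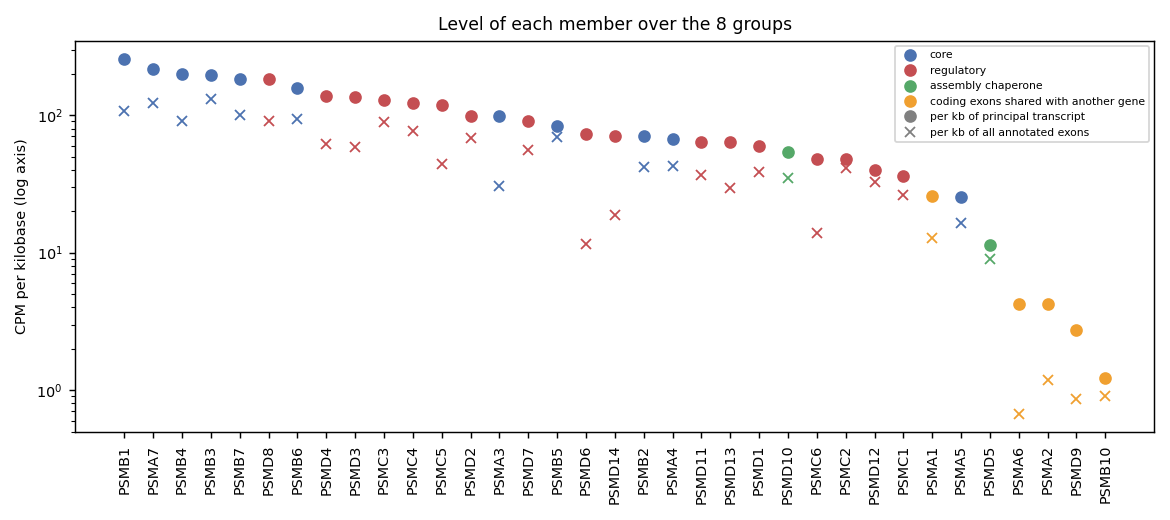
Level of the 35 members that passed the filter, as mean CPM of the 8 groups per kilobase on a log axis, ordered by the value per kilobase of the principal transcript (circles) and with crosses for the value per kilobase of all annotated exons. The 5 genes that share coding exons with another gene (orange) lie at or below 25.8 CPM per kilobase, and PSMB1 is highest at 258.

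The question of whether proteasome genes differed between transfected and untreated cells was addressed by setting the mean of the 7 transfected groups against parental cells. The comparison of empty vector alone shares the parental libraries with it, and its own values are given after. The subunits that rose were PSMC4, an ATPase of the regulatory particle, PSMD3 and PSMD12, both of its lid, and PSMA5 of the alpha ring. The catalytic beta subunit PSMB5, which cleaves after hydrophobic residues, fell. The changes lay between 0.83-fold and 1.40-fold. In edgeR's quasi-likelihood test with Benjamini-Hochberg adjustment over 19316 genes, 4 of 35 members (11.4%) rose and 1 (2.86%) fell, against 15.4% and 14.3% of all genes tested (29.7% in either direction). Neither share of members was above that of all genes.

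PSMC4 (ENSG00000013275, GRCh38.p13 chromosome 19, 39971165 to 39981764, plus strand) had 132 and 158 CPM in parental replicates 1 and 2. The empty vector libraries had 186 and 218 CPM, T1 had 187 and 236, T2 had 181 and 212, and CU1 had 181 and 214. CU2 had 179 and 225 CPM, CU1ENC had 179 and 227, and CU1ENU had 189 and 221. Each transfected library was above both parental libraries, and replicate 2 was above replicate 1 in all 8 groups. The log2 fold change was 0.48 ± 0.13 (SE; adjusted p = 0.0138, edgeR), or 1.40-fold with a 95% interval of 1.15 to 1.70.

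PSMD3 (ENSG00000108344, chromosome 17, 39980807 to 39997959, plus strand) had 216 and 242 CPM in parental cells, and its 14 transfected libraries ran from 276 to 324 with a median of 304. The groups did not overlap, and the log2 fold change was 0.39 ± 0.09 (adjusted p = 0.00512, edgeR). PSMD12 (ENSG00000197170, chromosome 17, 67337916 to 67366605, minus strand) had 127 and 142 CPM in parental cells and 154 to 204 CPM, median 180, in transfected ones. Again all 14 lay above both parental libraries, with a log2 fold change of 0.43 ± 0.12 (adjusted p = 0.0154). PSMA5 (ENSG00000143106, chromosome 1, 109399042 to 109426448, minus strand) had 75.2 and 85.4 CPM in parental cells and 86.3 to 105 CPM, median 96.0, in transfected ones. Its lowest transfected library, CU1ENC replicate 1, was just above the higher parental library, and the log2 fold change was 0.27 ± 0.07 (adjusted p = 0.0113).

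PSMB5 (ENSG00000100804, chromosome 14, 23016543 to 23035230, minus strand) went the other way, with 119 and 132 CPM in parental cells and 94.9 to 110 CPM, median 106, in transfected ones. All 14 transfected libraries were below both parental libraries, and the log2 fold change was -0.26 ± 0.06 (adjusted p = 0.00482, edgeR). The other catalytic subunits did not follow it. PSMB6, which cleaves after acidic residues, had 107 and 129 CPM in parental cells and 118 to 154 CPM in transfected ones, with a log2 fold change of 0.22 ± 0.11 (adjusted p = 0.162). Its value was 0.08 without parental replicate 1 and 0.36 without parental replicate 2. PSMB7, which cleaves after basic residues, had 165 and 191 CPM against 163 to 198 CPM, with a log2 fold change of 0.02 ± 0.09 (adjusted p = 0.913). The 3 catalytic subunits were not tested against each other.

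These calls leaned on the 2 parental libraries. Without parental replicate 1, the 4 members that rose no longer passed (adjusted p from 0.144 for PSMD3 to 0.288 for PSMA5, whose log2 fold change was then 0.16), and without parental replicate 2, neither PSMD12 (0.0609) nor PSMB5 (0.122) passed. Every such value kept its sign. Over all genes, 4 members (PSMA5, PSMC4, PSMD3 and PSMD12) had each transfected library above both parental libraries, where 16.8% of all genes did, and PSMB5 alone had each below, where 14.9% did.

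**Figure D2:**
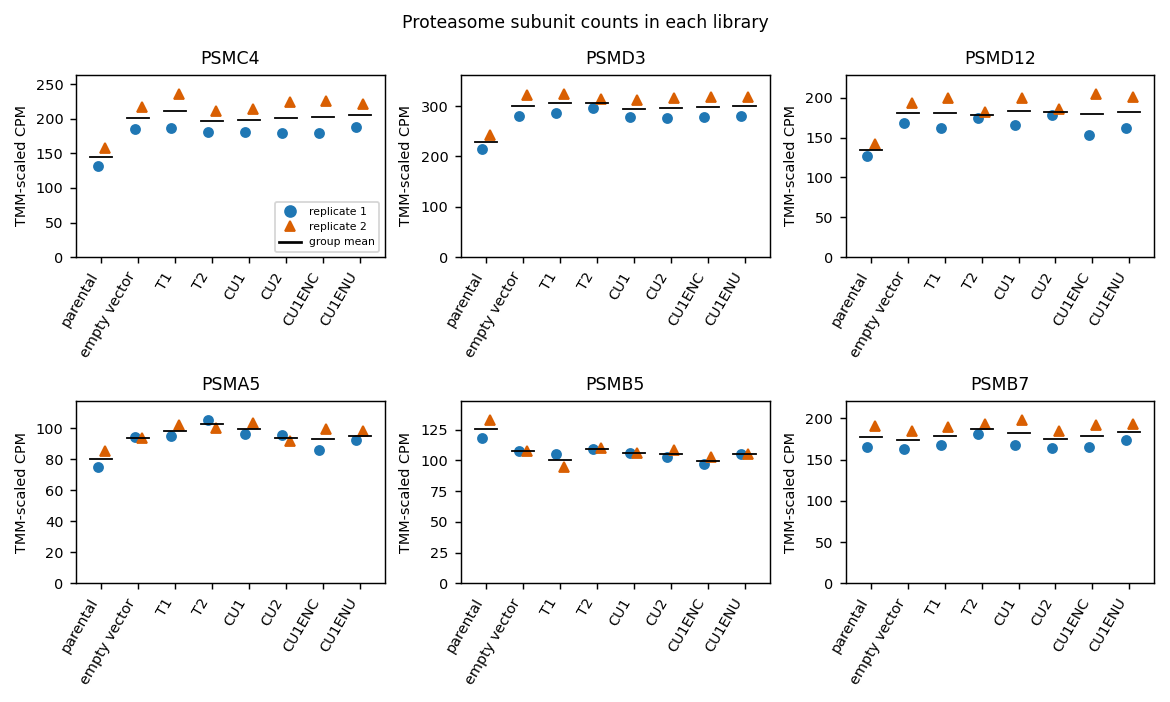
TMM-scaled CPM (y axis, from 0) in each of the 16 libraries for 6 members, with circles for replicate 1, triangles for replicate 2 and a bar at the mean of each group on the x axis. PSMC4, PSMD3, PSMD12 and PSMA5 have all 14 transfected libraries above both parental ones, PSMB5 has all 14 below, and PSMB7 overlaps.

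Libraries with the same replicate number deviated together in all 28 pairs of groups, so the comparison was also made with the replicate number as a block. Then 17 of 35 members (48.6%) rose and PSMB5 alone fell, against 23.1% and 22.5% of all genes tested (45.7% in either direction). The members that rose were 12 of 17 regulatory genes, 4 of 15 core genes (PSMA5, PSMA7, PSMB3 and PSMB6) and the chaperone PSMD5. The ATPases among them were 4 of 6, PSMC3, PSMC4, PSMC5 and PSMC6. So were the scaffold subunits PSMD1 and PSMD2, the deubiquitinase PSMD14 with its partner PSMD7, and the lid subunits PSMD3, PSMD11, PSMD12 and PSMD13. PSMD4, a ubiquitin receptor, had a log2 fold change of 0.05 (adjusted p = 0.419 with the block), and PSMD6 and PSMD8 did not pass either. For PSMB6 the block gave an adjusted p of 1.48e-04, and for PSMC4 8.14e-11. With the block and without parental replicate 1, 6 of 35 members rose and 2 fell, against 16.4% and 17.0% of all genes tested, so the share that rose was near the background. Without parental replicate 2, 13 of 35 rose and 1 fell, against 15.1% and 15.1%.

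The regulatory particle lay above the core particle in its median. Without the block, all 17 regulatory genes had a positive log2 fold change, with a median of 0.15 (range 0.05 to 0.48). Of 15 core genes 10 were positive, with a median of 0.04 (range -0.32 to 0.27), and the median of all genes tested was -0.0038. Without parental replicate 1 the regulatory median was 0.07 and the core median -0.03, and without parental replicate 2 they were 0.24 and 0.12. With upper quartile scaling the core median was -0.0026 and the regulatory one 0.11. Among the 15 core genes, 7 of the alpha ring had a median of 0.04 and 7 of the beta ring 0.04. The 6 ATPases had a median of 0.15 and the 11 other regulatory subunits 0.16. These are descriptions of 2 gene lists in the same libraries, and the difference between the particles was not tested. The core list holds PSMA1, PSMA2, PSMA6 and PSMB10, whose levels are uncertain through shared coding bases. The regulatory list holds no such gene.

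Setting each transfected library against the parental library of its own replicate number gave the same order. In replicate 1 the median log2 ratio was 0.19 for regulatory and 0.11 for core genes, and in replicate 2 it was 0.10 and -0.02. Of regulatory genes, 15 of 17 were positive in both numbers, and 11 of 17 (64.7%) had all 7 transfected libraries above the parental one in both. Of core genes, 5 of 15 were positive in both and 3 (20.0%) had all 7 above in both, PSMA5, PSMA7 and PSMB6. The 5 and the 3 all lie among the 11 tested core genes that share no coding bases. PSMA1, PSMA2, PSMA6 and PSMB10, whose levels are uncertain, are in neither count, and the regulatory list holds no such gene. Among all genes tested, 22.3% had all 7 above in both, and the share that was positive in both is not given here. Summed over its genes, the regulatory particle took 0.274% and 0.312% of all counts in the parental libraries and 0.310% to 0.347% in transfected ones, so CU1ENC replicate 1 was below parental replicate 2. The core particle took 0.178% and 0.202% in parental and 0.186% to 0.208% in transfected libraries, which overlapped.

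**Figure D3:**
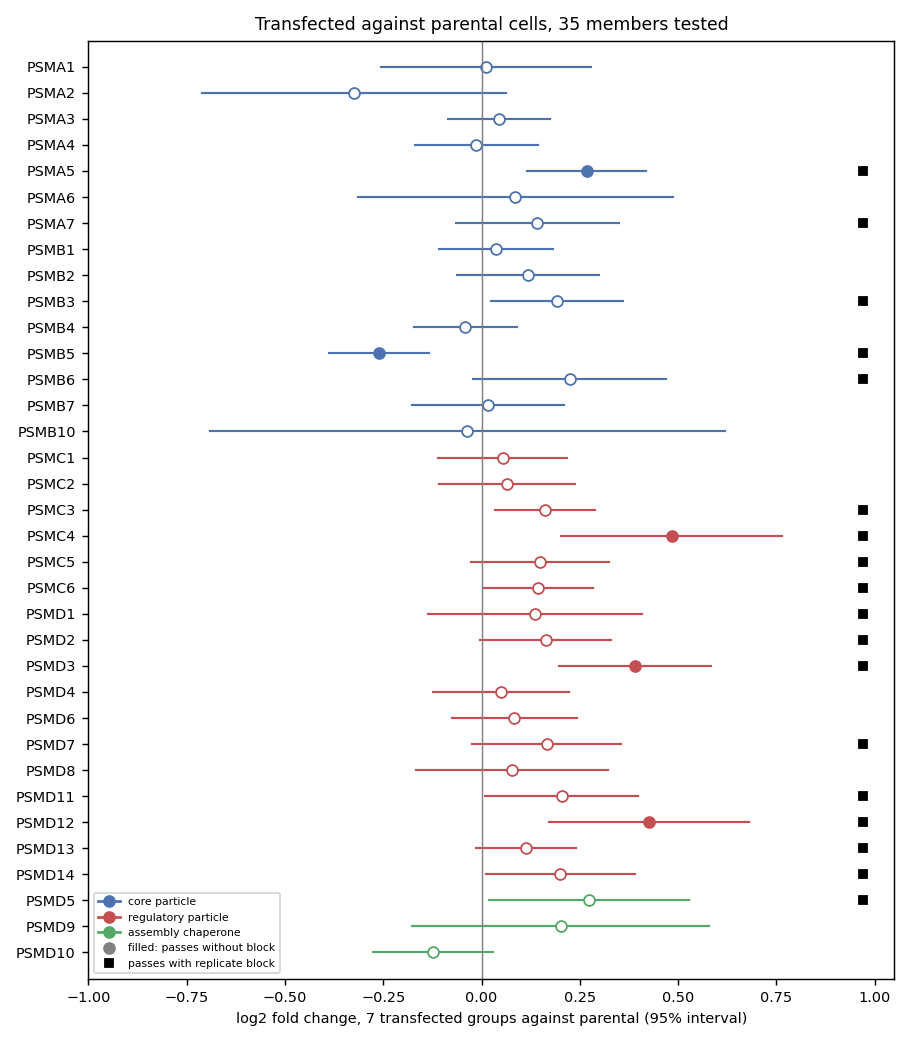
Log2 fold change of the 7 transfected groups against parental cells (x axis) for the 35 members tested (y axis, by role), with 95% intervals from the fit without a block. Filled points passed in that fit (4 up, 1 down), and black squares mark the 18 members that passed with the replicate number as a block.

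Empty vector alone was compared with parental cells to describe transfection as a whole, with plasmid, reagent and handling together, without a transcript. PSMD3 rose, with 280 and 322 CPM against 216 and 242 CPM (log2 fold change 0.39 ± 0.12, adjusted p = 0.0320, edgeR). It was 1 of 35 members (2.86%), and none fell, against 9.41% and 6.60% of all genes tested. At an unadjusted p under 0.05 there were 5 of 35 members, against 30.3% of all genes tested. DESeq2 called 3 up and 0 down, against 9.20% and 7.08%. The call of PSMD3 was lost without parental replicate 1 (adjusted p = 0.251), parental replicate 2 (0.0672) or empty vector replicate 2 (0.245).

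The largest differences in either direction were those of PSMC4 (log2 fold change 0.48 ± 0.17, adjusted p = 0.0669), PSMB10 (-0.45 ± 0.42, adjusted p = 0.515) and PSMD12 (0.43 ± 0.15, adjusted p = 0.0712). PSMC4 and PSMD12 passed under DESeq2 (adjusted p = 0.0358 and 0.0491). PSMB10 encodes an inducible catalytic subunit of the immunoproteasome and had at most 35 counts in a library. It had 1.18 and 1.83 CPM in parental and 0.981 and 1.22 CPM in empty vector libraries, which overlap. The smallest differences were those of PSMD4 (-0.0011), PSMA3 (0.01) and PSMA1 (0.02).

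With the replicate block, 9 of 35 members (25.7%) rose in empty vector and 2 (5.71%) fell, against 18.4% and 15.9% of all genes tested (34.3% in either direction). Regulatory genes were 7 of the 9 (PSMC4, PSMC5, PSMD3, PSMD7, PSMD11, PSMD12 and PSMD14) and core genes 2 (PSMA5 and PSMB6). PSMB5 and the chaperone PSMD10 fell. With the block and without parental replicate 1, 4 of 35 rose and 2 fell, against 14.0% and 13.5% of all genes tested. Without parental replicate 2, 8 rose and 0 fell, against 12.1% and 11.2%. Both empty vector libraries were above both parental ones for 13 of 35 members (37.1%, against 30.1% of all genes) and below both for PSMA2 and PSMB5 (5.71%, against 27.8%).

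The LINC01016 transcripts were then compared with the empty vector, to ask whether a transcript changed subunit genes beyond the plasmid. No member rose or fell in the mean of the 6 transcripts or in any single transcript in edgeR's test, with or without the replicate block, at an adjusted p under 0.05. At an unadjusted p under 0.05 there were 0 members without the block, and the share of all genes is not given here. The spread between libraries that edgeR fitted (common dispersion) was 0.018 without the block and 0.0044 with it. The 0 without the block therefore says little about the members. With the block there were 5 of 35 in T2, all positive (14.3%, against 7.58% of all genes tested), 1 in CU1 (2.86%, against 4.83%) and 0 in the other comparisons with empty vector. The mean of the 6 transcripts called 0.0104% of all genes up and 0 down, and single transcripts called 0.00518% or 0.0104% up. DESeq2 likewise called no member. For the mean of the 6 transcripts, the 95% interval lay within 1.5-fold in either direction for 33 of 35 members, with PSMA6 and PSMB10 outside it. All 17 regulatory genes lay within 1.5-fold for each transcript.

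The members of lowest p differed by transcript. In T2, PSMB3 had 170 and 172 CPM against 147 and 149 CPM in empty vector (log2 fold change 0.21 ± 0.10, unadjusted p = 0.0582 in edgeR). There 14 of 15 core genes were positive with a median of 0.11. These genes share libraries, the count was not tested, and the share of all genes positive in T2 is not given here. PSMC3 (0.15 ± 0.08) and PSMA4 (0.17 ± 0.10) came next in T2. With the block, the T2 members of unadjusted p under 0.05 were PSMA7 (0.20 ± 0.06), PSMB3 (0.21 ± 0.07), PSMC3, PSMA4 and PSMB2, and the lowest adjusted p among them in edgeR was 0.501. T1 was led by PSMB5 (-0.11 ± 0.08), then PSMA6 and PSMC3. CU1 was led by PSMA6 (0.40 ± 0.25), then PSMD10 and PSMB10, and with the block PSMD10 alone had an unadjusted p under 0.05 there. In CU2 and CU1ENC the leading member was PSMB10 (0.63 ± 0.42 and 0.59 ± 0.42), and in CU1ENU it was PSMA6 (0.35 ± 0.25). PSMB10 and PSMA6 are 2 of the genes with shared coding exons and few counts.

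Whether the 6 transcripts differ among themselves was tested with an F-test over their groups. It called 0 of 35 members and 0 of all genes tested in edgeR. At an unadjusted p under 0.05 it had 0 members and only 98 of 19316 genes, where 617 had one with the block. The 0 members without the block therefore say little. With the block it called none either, and PSMB3 alone had an unadjusted p under 0.05 (2.86% of members, against 3.19% of all genes tested). DESeq2's likelihood ratio test called no member. The core median ran from 0.01 in CU2 to 0.11 in T2, and the regulatory median from -0.01 in CU1ENC to 0.04 in T2.

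**Figure D4:**
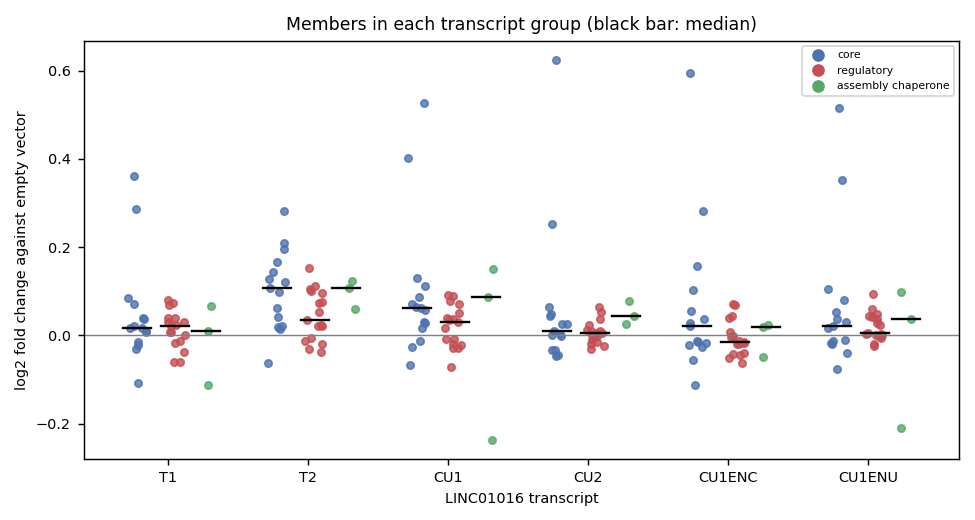
Log2 fold change against empty vector (y axis) of each tested member in each of the 6 transcript groups (x axis), coloured by particle and with a black bar at each median. No point passed the test. Core medians run from 0.01 to 0.11 and regulatory medians from -0.01 to 0.04.

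The replicate number itself went with the level of these genes. In edgeR's fit of group and replicate number, 21 of 35 members (60.0%) were called higher in replicate 2 at an adjusted p under 0.05. None was called lower, although PSMA1, PSMA2, PSMA3, PSMA6, PSMB10 and PSMD13 had negative log2 differences. Of all genes tested, 18.0% were called higher and 17.9% lower (35.9% in either direction). The 21 members were 13 of 17 regulatory genes, 5 of 15 core genes (PSMA7, PSMB1, PSMB2, PSMB6 and PSMB7) and all 3 chaperones. PSMC4 led with a log2 difference of 0.27 ± 0.03 (adjusted p = 2.52e-09), then PSMD1 with 0.27 ± 0.03 (adjusted p = 4.82e-09). PSMD1, a scaffold of the regulatory base, had 159 CPM in parental replicate 1 and 210 in replicate 2, and its transfected libraries had 175 to 195 CPM in replicate 1 and 213 to 228 in replicate 2. The 2 numbers did not overlap. The median log2 difference was 0.14 for regulatory and 0.07 for core genes, and -0.01 for all genes tested. Without the parental libraries 18 members passed, and the share of all genes in that fit is not given here. No label says what the replicate number marks.

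Immunoproteasome and peptide-loading genes outside the rule ran opposite to this. PSMB8, PSMB9, TAP1, TAP2 and TAPBP, which serve antigen presentation, were all called lower in replicate 2 in that fit over the 8 groups. These were 5 of 5 tested, against 17.9% of all genes tested. In the parental pair PSMB8 and TAP2 were not lower in replicate 2. PSMB8 had 2.49 CPM in parental replicate 1 and 2.62 in replicate 2, and TAP2 had 12.4 and 14.2 CPM. TAP1 was nearly level in that pair at 54.1 and 53.9 CPM, while its transfected medians were 108 and 52.8 CPM. PSMB9 (1.89 and 1.40 CPM) and TAPBP (74.5 and 70.7 CPM) were lower in parental replicate 2. For TAPBP the transfected medians were 76.2 and 57.9 CPM. Whether the replicate difference depends on transfection was not tested. PSMB9 had 3.19 to 7.96 CPM in transfected replicate 1 libraries and 0.506 to 2.89 CPM in replicate 2, with a log2 difference of -1.87 ± 0.36 (adjusted p = 0.00412, edgeR). PSMB8 differed by -1.35 ± 0.27 (adjusted p = 0.00276). Both were low, with at most 7.96 CPM.

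**Figure D5:**
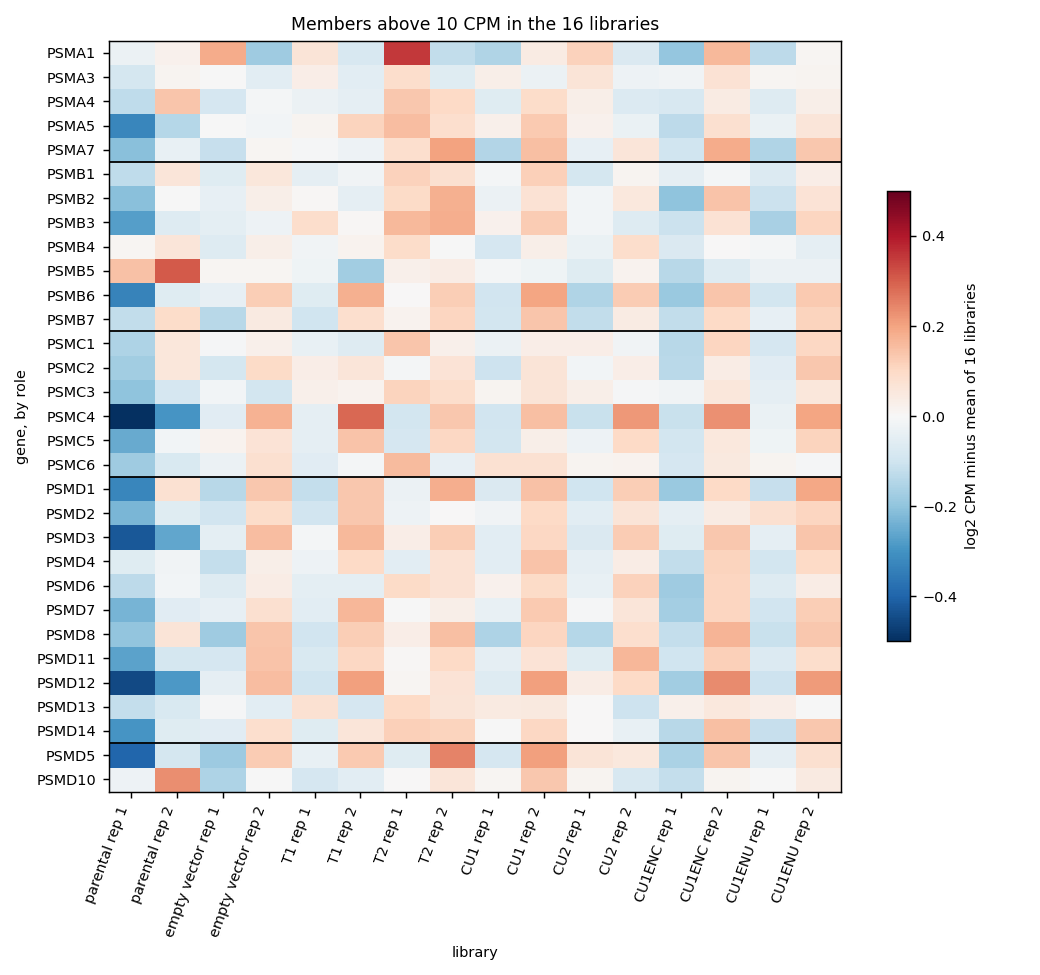
Log2 CPM minus the mean of the 16 libraries for the 31 members above 10 CPM (rows, by role, with lines between roles) in each library (columns). Colours end at 0.5 in either direction, and the lowest value is -0.55 for PSMC4 in parental replicate 1. In edgeR's fit, 21 of the 35 members tested (60.0%) were called higher in replicate 2 at an adjusted p under 0.05, against 18.0% of all genes.

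Other genes of the pathway were taken from lists rather than by how they moved, and are given for the 7 transfected groups against parental cells. Beside their counts stand the 15.4% of all genes tested that rose and the 14.3% that fell, or 23.1% and 22.5% with the block. Of 7 particle-associated proteins 3 rose, and none fell. ADRM1, a ubiquitin receptor of the regulatory particle, had 98.1 and 112 CPM in parental and 140 to 215 CPM in transfected libraries, which did not overlap (log2 fold change 0.73 ± 0.17, adjusted p = 0.00806, edgeR). The deubiquitinase UCHL5 (0.20) and the thioredoxin-like TXNL1 (0.34) also rose. SEM1, a small subunit of the lid outside the symbol rule, had a value of -0.21 (adjusted p = 0.103). Of 6 assembly chaperones PSMG1 rose (0.30 ± 0.10, adjusted p = 0.0431), and the core assembly factor POMP had 0.16 ± 0.08 (adjusted p = 0.122). With the block, 6 of 7 and 4 of 6 rose.

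Of 7 transcription factors and the genes that process them, 3 rose: NFE2L2, SYVN1 and NGLY1. NFE2L2, the antioxidant response factor, had 68.2 and 83.8 CPM in parental and 94.4 to 127 CPM in transfected libraries (log2 fold change 0.50 ± 0.11, adjusted p = 0.00447, edgeR). SYVN1, a ubiquitin ligase of the endoplasmic reticulum, had 0.39 ± 0.07 (adjusted p = 9.85e-04), and NGLY1, the deglycosylase that acts on NFE2L1, 0.27 ± 0.08 (adjusted p = 0.0251). NFE2L1 itself had 324 and 350 CPM in parental and 284 to 317 CPM in transfected libraries. All 14 were below both parental libraries, with a log2 fold change of -0.17 ± 0.06 (adjusted p = 0.0508, and 0.00134 with the block). These are RNA levels and say nothing of the amount of active factor.

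Among ubiquitin activation and shuttle factors, the arsenite-inducible ZFAND2A rose (0.68 ± 0.12, adjusted p = 9.58e-04, edgeR), as did the shuttle factor UBQLN4 (0.32), while UBQLN2 fell by 0.27 on the log2 scale. Of 8 genes of the VCP machinery, which extracts ubiquitin-tagged proteins, FAF1 (0.29) and UBXN1 (0.21) rose. Of 5 immunoproteasome and peptide-loading genes TAP2 rose (1.00 ± 0.31, adjusted p = 0.0345), and PSMB8 (0.54 ± 0.78) and PSMB9 (0.98 ± 1.11) did not pass. None of the 5 activator and inhibitor genes passed, with PSMF1 closest (0.23 ± 0.11, adjusted p = 0.124). With the block the inhibitor PSMF1 (adjusted p = 1.26e-04) and the activator PSME2 (adjusted p = 0.0232) rose in edgeR. For PSMF1 all 7 transfected libraries were above the parental one in both replicate numbers. For PSME2 all 7 were above in replicate 1 (median 49.23 against 37.94 CPM). In replicate 2, 5 were above and 2 below (median 39.26 against 38.76 CPM). For the activator PSME1, 6 of 7 were above in replicate 1 and all 7 were below in replicate 2. Whether these changes differ between replicate numbers was not tested.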

How the data were processed

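RNA-seq of HEK293 cells was analysed from read counts per gene that the authors deposited without normalization. Per the file headers they were made with featureCounts 2.0.1 (paired reads, strand option 2, exons by gene). The submitters' processing notes name HISAT2, DESeq2 and GRCh38.p13, and the annotation was Ensembl release 101 per the file headers. The treatment of multi-mapping reads is not given in the sources used here. Symbols came from the supplied gene names by identifier. TPM were computed from the counts and exon lengths in the table, and CPM were scaled by TMM. edgeR 4.0.16 (R 4.3.3) was fitted to 8 group means over all 16 libraries, with filterByExpr, robust quasi-likelihood F-tests and Benjamini-Hochberg adjustment over 19316 genes at 0.05. Each SE was taken as the size of the log2 fold change over the root of its F statistic, and intervals rest on it. Groups and replicate numbers came from the titles. Libraries of a group differed beyond sampling noise (chi-square per degree of freedom 6.21 to 17.0), so none was counted as a repeat. Whether replicates were separate cultures is not said, so a p-value measures only how these libraries vary, which may be technical variation. After group means were removed, same-numbered libraries correlated for each of 28 group pairs (r between 0.162 and 0.442), and the numbers were therefore treated as pairing libraries, on the data alone and not on a label. Tested on simulated data, the fit missed most 1.3-fold changes (3.13% to 16.7% recovered) and many 2-fold ones (45.4% to 63.9% recovered). Its share of false calls was in part above the nominal level. The simulation changed far fewer genes than were called against parental cells in the data. It held no replicate effect and used the spread of the fit without a block. These rates therefore need not hold for the real tests, least of all with the block. GENCODE 29 gave coding overlaps and principal transcripts, and 929 of its 981 exons of these genes have the same coordinates in the count table. Members, lists and rules were chosen with earlier results of these data known. Named were the catalytic subunits, members passing with up to 4 of lowest p per particle and direction, the 3 largest and 3 smallest differences in empty vector, the highest and lowest levels, low-count members, and the 3 of lowest p where none passed. Other scalings, filters, libraries in the fit, DESeq2 1.42.0, the replicate block and leaving out each library were tried. Results for some genes of the ubiquitin lists are not reported here.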

Additional observations from a re-analysis of the deposited data

How the results depend on the processing

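For empty vector against parental cells, the 1 member up became 3 with all genes that had any count, 3 with only the libraries compared, 3 with DESeq2, 9 with the replicate block and 0 to 2 when 1 library was left out. Members down went from 0 to 1 with upper quartile factors and to 2 with the block. With the block and without parental replicate 1 or 2, an alternative added after seeing the data, 4 and 8 rose and 2 and 0 fell. Of all genes tested, 9.41% rose and 6.60% fell in the main fit, 9.20% and 7.08% with DESeq2, and 18.4% and 15.9% with the block. For the 7 transfected groups, the 4 members up became 17 with the block and 0 to 5 with 1 library left out, and the 1 down became 0 or 1. With the block and without parental replicate 1 there were 6 up and 2 down, and without parental replicate 2 there were 13 up and 1 down. Of all genes tested, 15.4% rose and 14.3% fell in the main fit, and 23.1% and 22.5% with the block. Shares of all genes are not given here for other filters, scalings or left-out libraries without the block. Member counts in those settings therefore cannot be set against all genes. The direction of PSMB7 in transfected cells reversed with upper quartile factors (-0.023), with the block and without parental replicate 1 (-0.016), and over left-out libraries (-0.10 to 0.12). In empty vector against parental cells its range was -0.15 to 0.066. PSMB10 in empty vector turned to 0.046 with the block and without parental replicate 2. The causes were not tested. The replicate block changed no call in comparisons with transcripts. The regulatory minus core median stayed between 0.09 and 0.13 over left-out libraries. Ratios of the highest to the lowest level moved from 7.89 to 5.05 (regulatory) and from 7.88 to 10.2 (core) per kilobase of principal transcript, also added after seeing the data. Depth limits PSMA2, PSMA6, PSMB10 and PSMD9, which had at most 132, 87, 35 and 153 counts in a library.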
